A study of Homo sapiens with 20 samples.

Results

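The comparison set the microRNA (miRNA) profile of HEK293E cells, a human embryonic kidney line, against that of HCT116 cells, a human colon cancer line, in 6 of the 20 small RNA libraries of the study. All 6 libraries came from cells in which DROSHA had been knocked out and then put back as the full-length protein, with 3 libraries of HEK293E and 3 of HCT116. The libraries were chosen by their titles and not by any measured value. Set beside them were the 6 libraries of the same knockout lines rescued with the shorter form DROSHA-p140 (3 per line), 3 libraries of wild-type HCT116 kept for 72 hr in 9.1% fetal bovine serum (FBS), 1 library of untreated wild-type HCT116 and 1 of HCT116 knockout cells given GFP. Wild-type HEK293E was not analysed here, and the labels do not say whether a knockout line is 1 clone, how DROSHA was delivered or whether replicates were separate cultures. The p-values therefore reflect how much these libraries vary, and that variation may be technical.

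MiRNAs are short RNAs that guide Argonaute proteins to messenger RNAs, chiefly by pairing of the seed, bases 2 to 8 from the 5′ end, and so lower the output of those messages. DROSHA cuts the hairpin out of the primary transcript in the nucleus and DICER trims it to a duplex, of which one strand (the guide) is usually kept and the other (the passenger) is mostly lost. Many miRNAs occur as near-identical copies at several genomic loci, so that the passenger strand, which differs more between copies, often shows which locus a guide came from. Cell lines of different origin are known to differ widely in miRNA content.

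The miRNAs with the largest or most abundant differences between the lines are shown first, each 5′ to 3′ from RefSeq (GRCh38.p14) with its seed in capitals. Those higher in HEK293E were the following.
miR-218-5p: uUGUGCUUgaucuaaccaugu
miR-582-5p: uUACAGUUguucaaccaguuacu
miR-10a-5p: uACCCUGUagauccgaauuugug
miR-155-5p: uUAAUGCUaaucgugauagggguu
Those lower in HEK293E were the following, and they share no seed with each other or with the first set.
miR-21-5p: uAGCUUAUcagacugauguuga
miR-31-5p: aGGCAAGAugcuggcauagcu
miR-203a-3p: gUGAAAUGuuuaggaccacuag
miR-203b-3p: uUGAACUGuuaagaaccacugga
miR-584-5p: uUAUGGUUugccugggacugag
miR-29a-3p: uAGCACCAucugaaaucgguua

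Another set is shown because it groups miRNAs of 3 seeds whose members share a seed but are made from different loci, and the lines differed in which locus was read out. Positions are counted from 1 at the 5′ end. miR-100-5p differs from miR-99a-5p by U16A, let-7c-5p from let-7a-5p by A19G, let-7d-5p from let-7a-5p by U1A and U16C, miR-98-5p from let-7a-5p by G11A and A19U, and miR-30e-5p from miR-30a-5p by C13U. Reads of such pairs can be told apart by those bases only, so low values of one beside high values of the other are uncertain.
miR-99a-5p: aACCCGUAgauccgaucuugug
miR-100-5p: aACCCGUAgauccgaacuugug
let-7a-5p: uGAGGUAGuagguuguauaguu
let-7c-5p: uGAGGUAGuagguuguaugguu
let-7d-5p: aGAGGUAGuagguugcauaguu
let-7i-5p: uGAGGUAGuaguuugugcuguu
miR-98-5p: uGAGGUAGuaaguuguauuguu
miR-30a-5p: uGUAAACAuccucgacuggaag
miR-30e-5p: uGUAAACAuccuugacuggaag

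After each mature miRNA was counted once, the HEK293E libraries held 224265, 232942 and 335807 reads and the HCT116 libraries 792980, 873717 and 764022, for 2588 mature miRNAs. Levels are given as CPM, counts scaled to a common library size after TMM (trimmed mean of M values) correction. Means carry the SD over n = 3 libraries. Replicates differed by more than counting noise in both lines. The chi-square per degree of freedom was 8.45 to 15.5 between HEK293E libraries, against 3.57 between HCT116 replicates 1 and 2 and 36.4 to 38.5 between either of them and replicate 3. The labelled cell types were checked against marker miRNAs. The 9 listed miRNAs of the epithelial miR-200 family summed to 148 to 188 CPM in HEK293E and 408 to 556 CPM in rescued HCT116, against 63103 to 70162 CPM in wild-type HCT116 in 9.1% FBS, so the rescued colon cancer cells lacked most of this epithelial signal. The 6 intestinal miRNAs miR-192, miR-194 and miR-215 (both strands) summed to 275 to 313 CPM in HEK293E and 269 to 364 CPM in HCT116, whose ranges overlap. Their members were not even, since of the 3 with enough reads to test 1 was higher in HEK293E and 1 lower. The higher one was miR-215-5p, with 43 reads over the HEK293E libraries, against 3 over the HCT116 libraries. MiRNAs made without DROSHA held 10.6% to 12.3% of reads in HEK293E and 2.74% to 4.98% in HCT116, against 0.821% to 1.18% in wild-type HCT116 in 9.1% FBS and 69.7% in the knockout given GFP. Extent of rescue and identity of the line therefore cannot be told apart in what follows.

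Of 517 miRNAs with enough reads to test, 331 (64.0%) differed between the lines at an adjusted p under 0.05 (edgeR's quasi-likelihood F test with Benjamini-Hochberg adjustment over all 517). In HEK293E 174 were higher (33.7%) and 157 lower (30.4%). A total of 142 were more than 2-fold higher and 128 more than 2-fold lower, and 49 and 42 of these passed 8-fold. The 3 and 3 libraries did not overlap for 366 miRNAs (70.8%). The split by direction depended on the scale. The median log2 fold change was 0.05 with TMM, whose factors were 1.41 to 1.47 in HEK293E and 0.661 to 0.712 in HCT116. It was 1.11 with library totals alone, which gave 315 higher and 76 lower, and -0.43 when libraries were scaled to the DROSHA-independent miRNAs, which gave 107 higher and 170 lower. Under TMM, DESeq2 size factors, library totals and the DROSHA-independent scale alike, 183 miRNAs (35.4%) passed in one direction, 107 higher and 76 lower in HEK293E. All 24 miRNAs named next as the largest differences are among those 183.

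**Figure D1:**
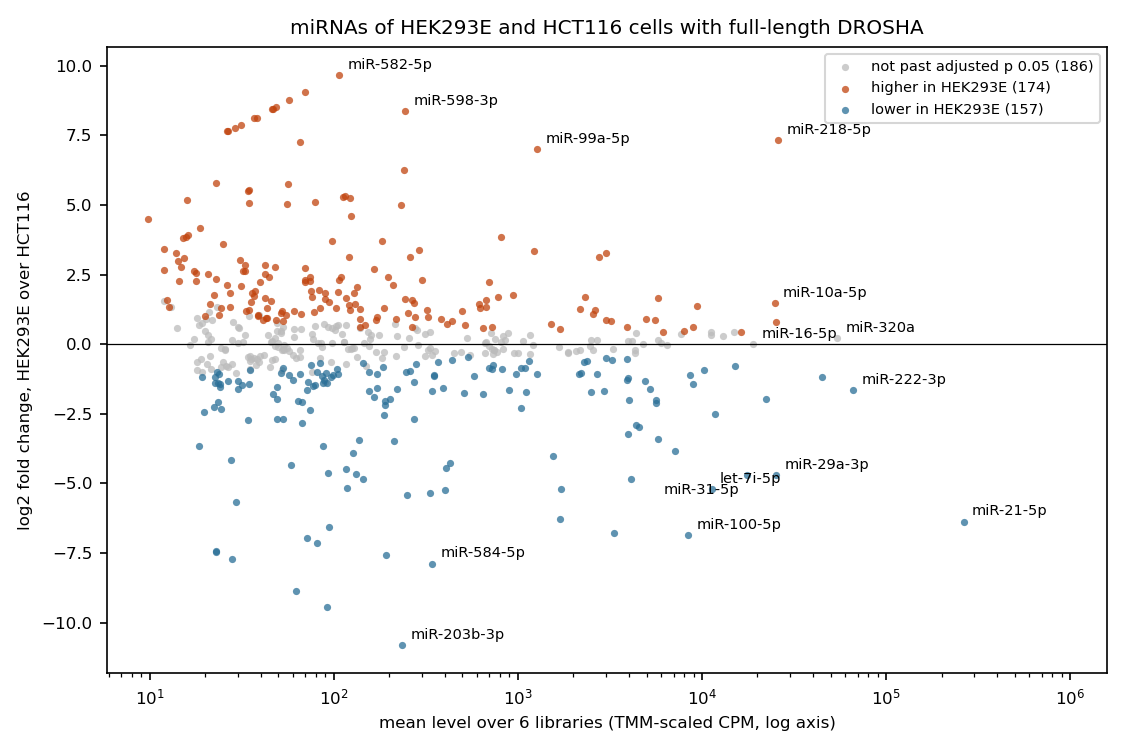
Log2 fold change of HEK293E over HCT116 (vertical axis) against the mean level over the 6 libraries with full-length DROSHA (TMM-scaled CPM, log axis), 1 point per miRNA tested. The 174 points above 0 in red and 157 below 0 in blue passed adjusted p 0.05, with miR-218-5p the abundant miRNA farthest above 0 and miR-21-5p at the far right below 0.

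Of the 10 most abundant miRNAs of HEK293E, the one with the largest fold change was miR-218-5p, which lies in an intron of SLIT2 (chr4:20528299-20528319, plus strand, hg38) and has another copy on chromosome 5. SLIT2 encodes a secreted guidance cue of axons and migrating cells, and miR-218 is known to be abundant in motor neurons. Its level was 53394, 55295 and 46256 CPM in HEK293E, against 258, 313 and 382 CPM in HCT116. Every HEK293E library was far above every HCT116 library, with a log2 fold change of 7.34 ± 0.20 (edgeR adjusted p = 4.7e-09). The strand miR-218-1-3p, which is specific to the SLIT2 hairpin, had 647, 424 and 359.7 CPM in HEK293E, against 10.8, 5.20 and 1.84 CPM in HCT116, a log2 fold change of 6.26 ± 0.44. In HEK293E miR-218-5p made up 6.74% to 8.12% of reads, against 0.0182% to 0.0272% in HCT116.

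Several miRNAs higher in HEK293E were near or below detection in HCT116. miR-582-5p, in an intron of the phosphodiesterase gene PDE4D, averaged 213 ± 1.53 CPM in HEK293E, against 0 reads in the HCT116 libraries, at least 119-fold higher when 3 reads over the HCT116 group are taken as the floor. miR-598-3p had 555 reads over the HEK293E libraries, against 2 over the HCT116 libraries, a ratio of 406 in CPM (95% counting interval 112 to 3359). miR-155-5p, from the MIR155HG transcript and known from activated immune cells and lymphoma, had 97.9, 102 and 81.7 CPM in HEK293E, against 0 reads in HCT116, at least 51.7-fold higher. Intervals and floors cover counting error only, since amplified reads are not separate molecules.

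miR-99a-5p, in an intron of MIR99AHG on chromosome 21, had 2099.6, 3081 and 2366 CPM in HEK293E, against 5.38, 13.9 and 38.6 CPM in HCT116, a log2 fold change of 7.02 ± 0.46 (edgeR adjusted p = 1.4e-06). The other members of the 12 largest differences upward were miR-338-3p (in AATK, a neuronal kinase gene), miR-125b-2-3p, miR-874-3p (in KLHL3), miR-486-5p (in the red-cell ankyrin gene ANK1), miR-296-3p, miR-4286 and miR-4443. Their log2 fold changes lay between 3.71 ± 0.34 for miR-4443 and 5.31 ± 0.62 for miR-338-3p. The HEK293E libraries of miR-338-3p were uneven, at 404, 111 and 159 CPM, against 7.18, 3.46 and 5.51 CPM in HCT116.

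The largest shift in abundance ran the other way. miR-21-5p, whose hairpin overlaps an exon of VMP1 (chr17:59841273-59841294, plus strand) and which is raised in many tumours, had 6533, 6405 and 6033 CPM in HEK293E, against 495203, 555860.2 and 513889 CPM in HCT116. Each HCT116 library was far above each HEK293E library, with a log2 fold change of -6.37 ± 0.13 (edgeR adjusted p = 6.0e-10). Its passenger miR-21-3p fell with it, at 66.3, 76.0 and 40.9 CPM in HEK293E, against 6730.0, 6935 and 6116 CPM in HCT116. miR-31-5p, from the MIR31HG transcript and raised in many colorectal tumours, had 1493, 938 and 1508 CPM in HEK293E, against 34528, 35652 and 31763 CPM in HCT116, a log2 fold change of -4.69 ± 0.21 (edgeR adjusted p = 8.7e-08).

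miR-203a-3p, known for its part in the differentiation of epidermis, had 56.8, 38.0 and 34.7 CPM in HEK293E, against 3069.9, 3386 and 3544 CPM in HCT116. miR-203b-3p, from a hairpin that overlaps miR-203a on the other strand of chromosome 14, had 0 reads in HEK293E, against 459, 511 and 445 CPM in HCT116, at least 181-fold lower with the floor of 3 reads. The sources used here do not say whether counting used strand, although the sequences of this pair differ. miR-584-5p, in an intron of SH3TC2, had 3 reads over the HEK293E libraries, against 1142 over the HCT116 libraries, 260.3-fold lower in CPM (95% counting interval 88.8 to 1264).

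The other members of the 12 largest differences downward were miR-100-5p, miR-125b-1-3p, miR-139-5p (in PDE2A), both strands of let-7i, let-7d-3p and miR-98-5p, and their log2 fold changes lay between -5.19 ± 0.23 for miR-98-5p and -6.84 ± 0.20 for miR-100-5p, apart from miR-125b-1-3p with 2 reads in HEK293E. All 24 miRNAs, 12 in each direction, stayed past the threshold with each library left out in turn. miR-31-5p and miR-155-5p are not among the 24, and miR-31-5p is given for its level in HCT116.

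**Figure D2:**
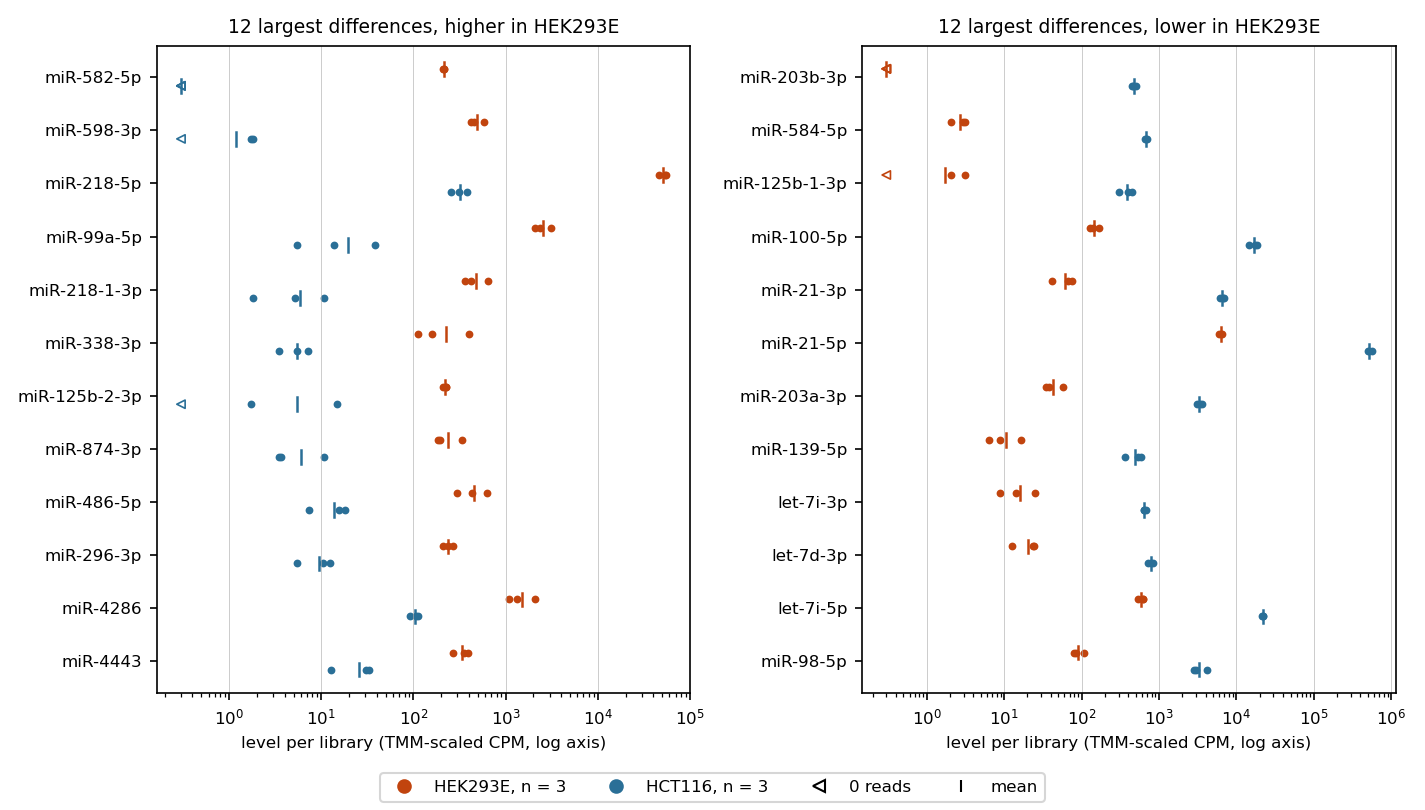
Level in each library (TMM-scaled CPM, log axis) of the 12 miRNAs with the largest differences in each direction, HEK293E above HCT116 in each row, with vertical ticks for the mean of 3 libraries and open triangles for libraries with 0 reads. The 24 were chosen without overlap of the lines, and miR-582-5p and miR-203b-3p had 0 reads in one line.

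Reads were spread over more miRNAs in HEK293E. The most abundant miRNA held 8.55% ± 0.81 of reads in HEK293E, against 36.1% ± 1.08 in HCT116 (SD, n = 3 each). The 10 most abundant held 44.8% ± 0.891, against 63.3% ± 1.77 in HCT116, and the 50 most abundant 79.3% ± 0.392, against 87.5% ± 0.575 in HCT116. No library of one line reached into the range of the other, and the exact two-sided permutation p was 0.1 for each measure, the smallest that 3 against 3 libraries allow. With miR-21-5p left out, the share of the 10 most abundant was 0.55 percentage points higher in HEK293E, in place of 18.5 points lower.

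The 10 most abundant miRNAs of the lines had 3 in common, miR-320a, miR-222-3p and miR-221-3p. In HEK293E the order was miR-320a, miR-218-5p, miR-10a-5p, miR-222-3p, miR-92a-3p, miR-221-3p, miR-16-5p, miR-93-5p, miR-25-3p and miR-19b-3p. In HCT116 it was miR-21-5p, miR-222-3p, miR-221-3p, miR-320a, miR-29a-3p, let-7a-5p, miR-31-5p, let-7i-5p, let-7f-5p and miR-103a-3p. A read covers a whole mature miRNA, so no length scaling was applied, but ligation efficiency differs between miRNAs and such orders are approximate. Within HEK293E every pair of neighbours in this order overlapped except miR-218-5p with miR-10a-5p and miR-221-3p with miR-16-5p. Within HCT116 the neighbours that overlapped were miR-221-3p with miR-320a, miR-320a with miR-29a-3p, let-7a-5p with miR-31-5p, and let-7f-5p with miR-103a-3p. miR-320a, which needs no DROSHA, had 67164, 52378 and 55301 CPM in HEK293E, against 61015, 59542 and 30824 CPM in HCT116, where replicate 3 was low, and the log2 fold change of 0.21 ± 0.24 did not pass (edgeR adjusted p = 0.46). miR-16-5p, known to repress cell cycle and survival genes, averaged 18970.4 ± 1999.7 CPM in HEK293E and 19006 ± 2009 CPM in HCT116, and did not pass.

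The let-7 family, which restrains growth genes such as RAS, MYC and HMGA2 and is low in early embryonic cells, fell in HEK293E. Of 20 tested strands of let-7 and miR-98, 18 were lower and 2 higher, with a median log2 fold change of -2.51, beside 0.05 over all 517 miRNAs. On every one of the 4 scales 15 were lower and 2 higher. The summed family was 21272 ± 2611 CPM in HEK293E and 112745 ± 5442 CPM in HCT116.

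Members fell by very different amounts. let-7a-5p, made from 3 loci, had 9371, 7671 and 10101 CPM in HEK293E, against 34424, 34237 and 38496 CPM in HCT116, a log2 fold change of -1.98 ± 0.14. let-7i-5p, from a single locus on chromosome 12, had 619, 532 and 629 CPM in HEK293E, against 21943, 21672 and 22213 CPM in HCT116, a log2 fold change of -5.21 ± 0.15 (edgeR adjusted p = 4.7e-09). The fold of let-7i was thus many times that of let-7a, with no overlap of the lines in either.

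On the log2 scale let-7d-5p fell by 4.85 ± 0.21 and miR-98-5p fell by 5.19 ± 0.23, while let-7f-5p fell by 2.49 ± 0.13 and let-7g-5p by 2.11 ± 0.17. Passenger strands separated the loci of let-7f, since let-7f-1-3p had 1 read over the HEK293E libraries, against 237 over the HCT116 libraries, 162-fold lower in CPM (95% counting interval 28.8 to 6428), and let-7f-2-3p fell by 1.12 ± 0.32. Likewise let-7a-2-3p had 1 read over the HEK293E libraries, against 269 over the HCT116 libraries, 184-fold lower in CPM (95% counting interval 32.7 to 7292), while the strand that the table names let-7a-3p fell by 1.79 ± 0.18. let-7e-5p fell least of the guides, with a log2 fold change of -0.64 ± 0.18 (edgeR adjusted p = 0.0094) that turned to 0.41 with library totals alone, and let-7e-3p with -0.86 ± 0.29 (adjusted p = 0.024) turned to 0.20.

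let-7c went against its family. let-7c-5p had 2352, 1818 and 2483 CPM in HEK293E, against 209.9, 201 and 249.9 CPM in HCT116, and let-7c-3p had 28.4, 26.3 and 36.8 CPM, against 3.59, 0 and 1.84 CPM in HCT116. Both strands were higher in every HEK293E library, with log2 fold changes of 3.33 ± 0.20 (edgeR adjusted p = 6.1e-07) and 3.93 ± 0.59 (adjusted p = 3.0e-04).

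let-7c lies in one of 3 related clusters, each of which joins a miR-99/100, a let-7 and a miR-125 hairpin, and the lines used different ones. The chromosome 21 cluster in MIR99AHG (miR-99a, let-7c, miR-125b-2) was high in HEK293E, and the chromosome 11 cluster in MIR100HG (miR-100, let-7a-2, miR-125b-1) in HCT116. In the chromosome 19 cluster in SPACA6 (miR-99b, let-7e, miR-125a) 2 of 6 strands were lower in HEK293E, both of let-7e, which turned higher with library totals alone. These and the next locus pairs were picked after their values were seen.

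From the chromosome 21 cluster miR-99a-3p had 133, 46.8 and 49.0 CPM in HEK293E, against 0 reads in HCT116, at least 40.0-fold higher, and miR-125b-2-3p had 208, 225 and 225 CPM, against 0, 1.73 and 14.7 CPM in HCT116. From the chromosome 11 cluster miR-100-5p had 139, 169.6 and 129 CPM in HEK293E, against 17181, 18584 and 14370.2 CPM in HCT116, a log2 fold change of -6.84 ± 0.20 (edgeR adjusted p = 4.7e-09). Its other strand miR-100-3p had 0 reads in HEK293E, against 161, 133 and 259 CPM in HCT116, at least 70.2-fold lower. Guide and passenger strands of each locus thus differed between the lines in the same direction.

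miR-125b-1-3p, the passenger of the chromosome 11 copy of miR-125b, had 2 reads over the HEK293E libraries, against 646 over the HCT116 libraries, 221-fold lower in CPM (95% counting interval 60.9 to 1828). The guide miR-125b-5p, identical from both copies, had 2242, 2868 and 2542 CPM in HEK293E, against 7939, 8201 and 7415 CPM in HCT116. The guide had a log2 fold change of -1.62 ± 0.14, while the passengers of its copies went in opposite directions.

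From the chromosome 19 cluster miR-99b-5p averaged 3079 ± 1122 CPM in HEK293E and 3498 ± 871 CPM in HCT116, and miR-125a-5p 2403 ± 488 CPM and 2524 ± 225 CPM. Neither passed, with edgeR adjusted p of 0.57 and 0.75. Summed over the seed ACCCGUA, which miR-99a, miR-99b and miR-100 share, HEK293E was lower by a log2 fold change of -1.79. In all, 3 of 11 tested strands of the miR-99/100 and miR-125 list were higher and 4 lower, with a median log2 fold change of -0.20 that turned to 0.87 with library totals alone.

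**Figure D3:**
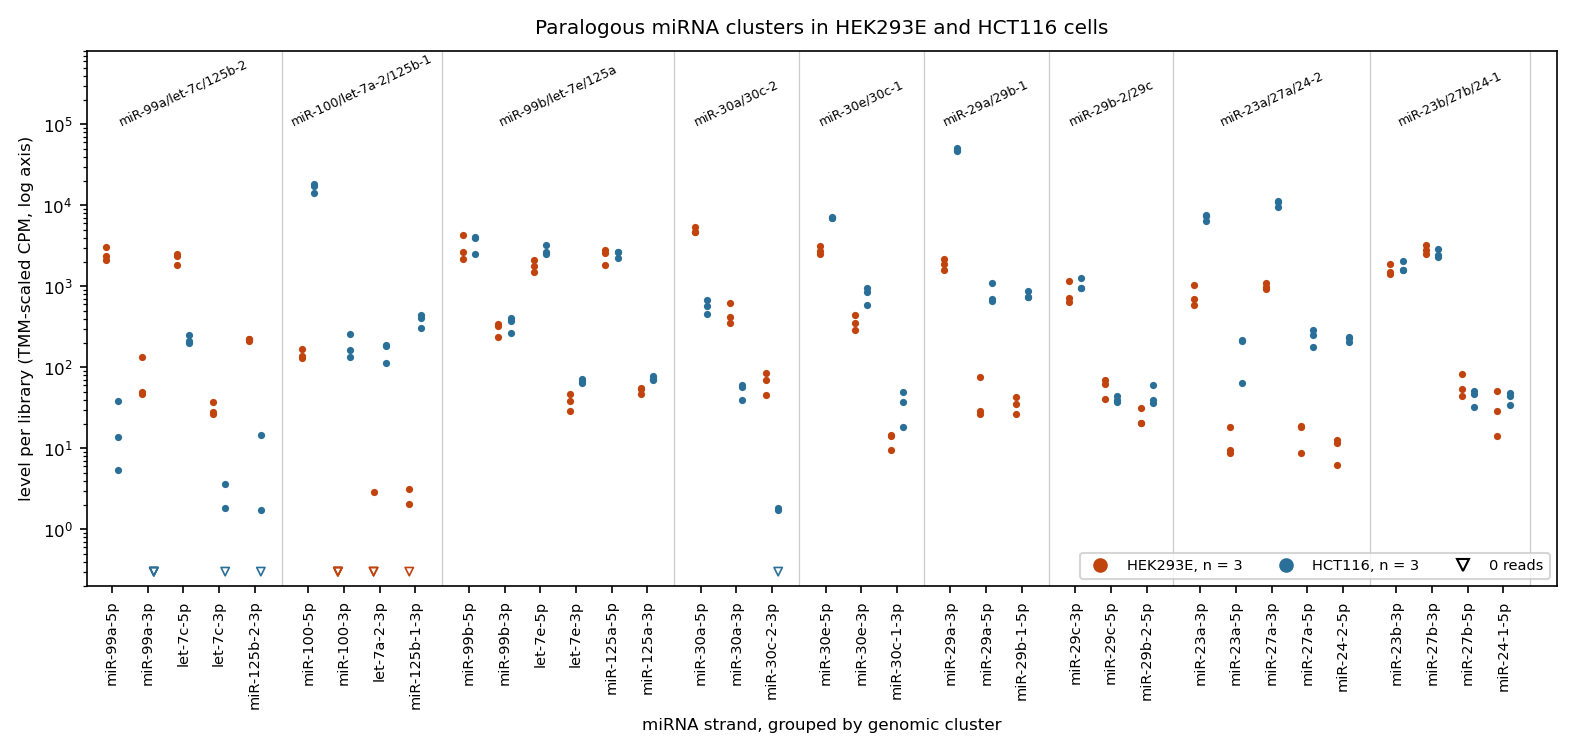
Level in each library (TMM-scaled CPM, log axis) of the strands of 9 genomic clusters, HEK293E left of HCT116 for each strand, with open triangles for libraries with 0 reads. The miR-99a, miR-100, miR-29a, miR-23a and miR-30a clusters separate the lines, and the miR-99b, miR-29c and miR-23b clusters show smaller differences. In the miR-30e cluster all 3 strands were lower in HEK293E.

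The miR-30 family, known to regulate epithelial state and autophagy, split by locus too. miR-30a-5p, from chromosome 6, had 5440.1, 4719 and 4667 CPM in HEK293E, against 569, 450.3 and 685 CPM in HCT116, a log2 fold change of 3.12 ± 0.19 (edgeR adjusted p = 8.0e-07). miR-30e-5p, in an NFYC intron on chromosome 1, had 3157, 2508 and 2747 CPM in HEK293E, against 7055, 7172 and 6913 CPM in HCT116, a log2 fold change of -1.33 ± 0.14 (edgeR adjusted p = 2.7e-05). The lines did not overlap for either, and the direction was opposite.

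miR-30c-5p is made from both places and averaged 6389 ± 524 CPM in HEK293E and 6576 ± 186 CPM in HCT116, with an edgeR adjusted p of 0.79. Its passengers parted, with miR-30c-2-3p of chromosome 6 at 85.2, 70.2 and 45.0 CPM in HEK293E, against 0, 1.73 and 1.84 CPM in HCT116. miR-30c-1-3p of chromosome 1 was at 9.47, 14.6 and 14.3 CPM in HEK293E, against 37.7, 50.2 and 18.4 CPM in HCT116. Of 11 tested strands 6 were higher and 3 lower, with a median of 0.46 that turned to -0.05 on the DROSHA-independent scale. The summed family, 27035 ± 251 CPM in HEK293E and 23435 ± 507 CPM in HCT116, differed less than these members.

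The miR-29 family, which targets collagens and other matrix genes, fell mostly in strands of a single locus. miR-29a-3p, from chromosome 7, had 2147, 1608 and 1890.3 CPM in HEK293E, against 46823, 50562 and 48751 CPM in HCT116, a log2 fold change of -4.69 ± 0.16 (edgeR adjusted p = 1.3e-08). Its neighbour's passenger miR-29b-1-5p fell by 4.46 ± 0.24. miR-29c-3p, from chromosome 1 and one base from miR-29a-3p (C10U), had 1175, 637 and 723 CPM in HEK293E, against 940.2, 944 and 1268 CPM in HCT116, which overlap, and did not pass (edgeR adjusted p = 0.29). Of 7 tested strands 5 were lower and none higher, with a median of -3.84, and 4 were lower on every scale, while miR-29b-2-5p turned to 0.11 with library totals alone.

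The miR-23/27/24 clusters, which act in angiogenesis and lipid metabolism, were lower in strands of chromosome 19. Of 10 tested strands 6 were lower and none higher, with a median of -2.60, and all 6 held on every scale. miR-23a-3p of the chromosome 19 cluster had 581, 1032 and 699 CPM in HEK293E, against 7604, 7426 and 6340.0 CPM in HCT116, and miR-27a-3p 972, 1105 and 932 CPM, against 10860.3, 11242 and 9592 CPM in HCT116. Their log2 fold changes were -3.21 ± 0.22 and -3.40 ± 0.15 (edgeR adjusted p = 2.0e-06 and 8.6e-08).

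The copies on chromosome 9, miR-23b-3p and miR-27b-3p, each with a single base difference from its partner over the shared length (U19A and C19U), were near even. miR-27b-3p averaged 2835 ± 371 CPM in HEK293E and 2564 ± 324 CPM in HCT116, and miR-23b-3p 1602 ± 243 CPM and 1734 ± 252 CPM, with edgeR adjusted p of 0.45 and 0.59. The passengers of miR-24 followed their clusters, with a log2 fold change of -4.49 ± 0.32 for miR-24-2-5p of chromosome 19 and -0.50 ± 0.43 for miR-24-1-5p of chromosome 9, of which the chromosome 9 strand did not pass.

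In the miR-181 family, active in lymphocyte development, 2 of 8 strands were higher and 2 lower, shares below those of all miRNAs tested (33.7% and 30.4%). miR-181a-5p averaged 5497 ± 437 CPM in HEK293E and 11810.1 ± 1804 CPM in HCT116, a log2 fold change of -1.10 ± 0.15. miR-181d-5p of chromosome 19 averaged 365 ± 4.72 CPM in HEK293E and 119 ± 13.3 CPM in HCT116, a log2 fold change of 1.61 ± 0.19. The miR-181 list summed to 9805 to 10798 CPM in HEK293E and 15050 to 19117 CPM in rescued HCT116. Wild-type HCT116 had 8708 to 9194 CPM in 9.1% FBS, below HEK293E, and 15333 CPM untreated.

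Of 18 tested strands of the miR-17/92 and miR-106b/25 clusters, which are linked to proliferation, 0 passed in one direction on all 4 scales. The miR-17/92 cluster of MIR17HG, an oncogenic cluster driven by MYC, had 4 of 12 strands higher, near the 33.7% of all miRNAs tested, and none lower. Its median log2 fold change was 0.52, with -0.10 on the DROSHA-independent scale and 1.57 with library totals alone. Its most abundant member miR-92a-3p averaged 32057 ± 3316 CPM in HEK293E and 18529 ± 714 CPM in HCT116 (0.79 ± 0.12, edgeR adjusted p = 3.7e-04). miR-20a-5p, at 12932 ± 4068 CPM in HEK293E and 9551 ± 3201 CPM in HCT116, and miR-17-5p did not pass. In the related miR-106b/25 cluster in an MCM7 intron 3 of 6 strands were higher, and the log2 fold change of 0.44 ± 0.12 of its member miR-93-5p turned to -0.03 on the DROSHA-independent scale.

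miR-222-3p and miR-221-3p, which repress the cell cycle inhibitor p27, were lower in HEK293E but stayed among its 10 most abundant miRNAs. miR-222-3p had 30405, 31457 and 34730.3 CPM in HEK293E, against 106882, 114374 and 80004 CPM in HCT116, a log2 fold change of -1.64 ± 0.15 (edgeR adjusted p = 1.3e-05). All 4 strands of the pair were lower, of which miR-221-5p turned to 0.16 with library totals alone. miR-34a-5p, a direct target of p53, averaged 1616 ± 567 CPM in HEK293E and 6387 ± 503 CPM in HCT116 (-1.98 ± 0.23, edgeR adjusted p = 5.6e-05). The miR-34 list summed to 1334 to 2359 CPM in HEK293E and 6167 to 7198 CPM in rescued HCT116. Wild-type HCT116 had 1930 to 3971 CPM in 9.1% FBS, overlapping HEK293E, and 5404 CPM untreated. Of the sensory and tumour cluster of miR-183, miR-96 and miR-182, 5 of 6 strands were lower, with a median of -1.03 that turned to 0.03 with library totals alone.

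The tested miRNAs of the HOX loci were higher in HEK293E. HOX genes set position along the body axis, and the miR-10 and miR-196 hairpins lie between them and target some of them. All 8 tested strands passed, beside 33.7% higher over all miRNAs tested, with a median log2 fold change of 1.26, and 3 did so on every scale. The untested miR-196a-3p and miR-615-5p averaged 5.43 and 9.33 CPM in HEK293E, against 5.34 and 10.1 CPM in HCT116. miR-10a-5p, in HOXB3 on chromosome 17, had 30699, 42329.6 and 36551 CPM in HEK293E, against 11298, 12603 and 15395 CPM in HCT116, a log2 fold change of 1.48 ± 0.17 (edgeR adjusted p = 4.5e-05). miR-196b-5p averaged 10828 ± 541 CPM in HEK293E and 7017 ± 1090.2 CPM in HCT116 (0.63 ± 0.15), and miR-10b-5p 3564 ± 523 CPM and 1092 ± 179 CPM (1.71 ± 0.18). The list summed to 56056 ± 6961 CPM in HEK293E and 23590.0 ± 1317 CPM in HCT116.

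Among miRNAs linked to nervous tissue 6 of 12 strands tested were higher in HEK293E and 3 lower, beside 33.7% higher and 30.4% lower over all miRNAs tested, with a median log2 fold change of 1.43. The sum of the list went the other way, at 8818 ± 296 CPM in HEK293E and 17487 ± 1636 CPM in HCT116. Those higher were of moderate or low level. miR-9-5p, a regulator of neural progenitors, had 1689, 985 and 754 CPM in HEK293E, against 159.7, 168 and 397 CPM in HCT116 (2.24 ± 0.41, edgeR adjusted p = 9.9e-04). miR-124-3p, the most abundant miRNA of mature brain, had 77 reads over the HEK293E libraries, against 2 over the HCT116 libraries, a ratio of 56.3 in CPM (95% counting interval 15.1 to 473). miR-129-5p had 126 reads, against 3 in HCT116, a ratio of 61.4 (20.5 to 302). The abundant miR-7-5p and miR-128-3p were lower, miR-7-5p at 4835 ± 335 CPM in HEK293E and 13121 ± 1659 CPM in HCT116, and the log2 fold change of -1.05 of miR-128-3p turned to 0.02 with library totals alone.

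The kidney-linked miR-204-5p, in an intron of TRPM3, had 101, 149 and 73.6 CPM in HEK293E, against 0, 5.20 and 3.67 CPM in HCT116 (5.05 ± 0.57, edgeR adjusted p = 5.0e-05), while miR-190a-5p of the same list was lower by -0.69 ± 0.24 and turned to 0.37 with library totals alone. The 5 listed kidney-linked miRNAs summed to 196 to 262 CPM in HEK293E and 179 to 257 CPM in HCT116, ranges that overlap. Of the 7 tested strands linked to colon cancer 5 were lower (both strands of miR-21 and miR-31, and miR-135b-5p) and 2 higher (miR-155-5p and miR-375), with a median of -4.35. miR-375, known from endocrine and gut epithelium, had 101, 216 and 231 CPM in HEK293E, against 19.7, 8.66 and 12.9 CPM in HCT116.

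Most markers of other tissues were low in both lines. Blood-linked miR-486-5p had 297, 626 and 431 CPM in HEK293E, against 17.9, 15.6 and 7.35 CPM in HCT116, and miR-486-3p was higher as well, while the erythroid, lymphoid and myeloid miR-451a, miR-150-5p, miR-223-3p and miR-142-3p did not have enough reads to test. Endothelial miR-126-3p averaged 910.0 ± 26.9 CPM in HEK293E and 1374 ± 276 CPM in HCT116, and its log2 fold change of -0.59 ± 0.18 turned to 0.47 with library totals alone. Smooth muscle and stromal miR-145-5p had 2 reads over the HEK293E libraries, against 316 over the HCT116 libraries, 108-fold lower in CPM (95% counting interval 29.7 to 896). The 36 listed miRNAs of the imprinted DLK1-DIO3 locus, the 10 pluripotency miRNAs (miR-302, miR-367 and miR-371 to miR-373), the 29 of the placental C19MC cluster and the 2 of liver had no member with enough reads to test. Of these 11, 5, 18 and 1 were at 0 in all 6 libraries.

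**Figure D4:**
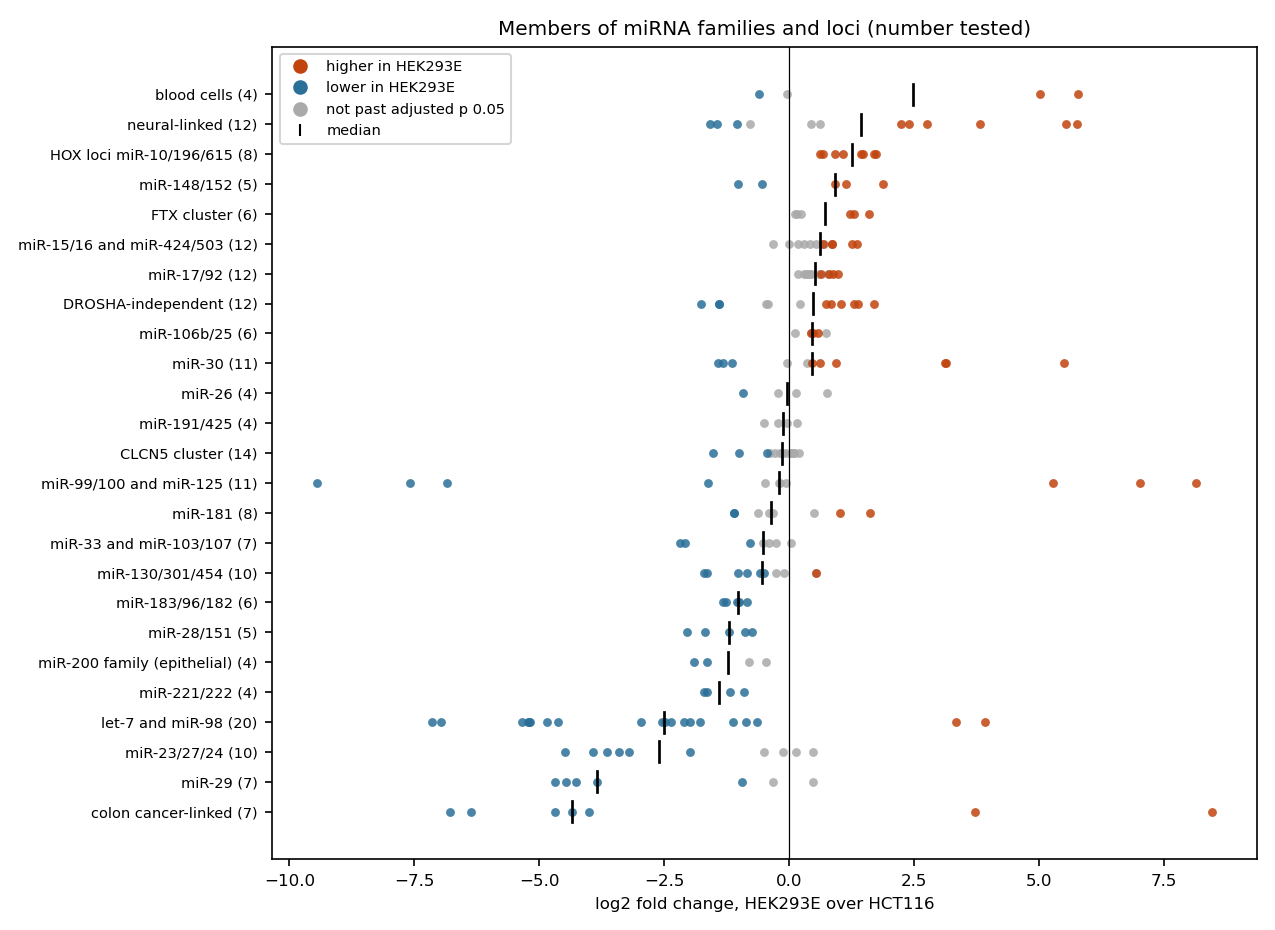
Log2 fold change of HEK293E over HCT116 for the tested members of miRNA lists with 4 or more of them, 1 point per strand and a black tick at the list's median, with the number tested in brackets. The colon cancer-linked, miR-29, miR-23/27/24 and let-7 lists lie lowest, the HOX list lies wholly above 0, and the miR-99/100 and miR-125 list reaches from -9.44 to 8.14.

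Since miRNAs with one seed share predicted targets, counts were also summed over bases 2 to 8. Of 417 seeds tested 278 (66.7%) passed, 157 higher and 121 lower in HEK293E. Among seeds with a mean of at least 1000 CPM the largest rises were those of miR-218-5p (UGUGCUU, 7.37 ± 0.21), miR-1260a and miR-1260b (UCCCACC, 3.28 ± 0.20), miR-342-3p (CUCACAC, 1.78 ± 0.18), miR-4521 (CUAAGGA, 1.71 ± 0.14), miR-10a-5p (ACCCUGU, 1.50 ± 0.16) and miR-484 (CAGGCUC, 1.40 ± 0.15). The largest falls were those of miR-21 and miR-590 (AGCUUAU, -6.26 ± 0.15), miR-203a (UGAAAUG, -6.26 ± 0.24), miR-31 (GGCAAGA, -4.66 ± 0.21), miR-29 (AGCACCA, -4.07 ± 0.22), miR-22 (AGCUGCC, -2.89 ± 0.15) and let-7 (GAGGUAG, -2.36 ± 0.15), as log2 fold changes ± standard error. Among the rises, miR-484 is made without DROSHA, and in HCT116 it averaged 5209 CPM with full-length DROSHA and 17924 CPM with p140. miR-1260b averaged 565 and 2424 CPM there, and whether it needs DROSHA was not tested.

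The miR-30 guide seed GUAAACA, summed over miR-30a, miR-30c and miR-30e, had a log2 fold change of 0.02 (edgeR adjusted p = 0.87). That sum is not the whole miR-30 family, since miR-30b-5p and miR-30d-5p had no RefSeq sequence here and did not enter it. Of the 4 tested strands of their cluster 3 were higher in HEK293E, with a median of 0.54. Of 47 seeds with at least 2 tested members, 9 had members in both directions and 28 in one direction only. Many of the 28, such as the guide seeds of miR-23 and miR-27, held a single call and so could not show both directions. Reads without a RefSeq sequence, which entered no seed, were 14.1% to 15.3% of a HEK293E library and 5.80% to 7.72% of an HCT116 library. They include those of miR-320a, the most abundant miRNA of HEK293E. Seed sums, their ranking and the counts of members by direction therefore cover only miRNAs with a sequence and can be partial for a family.

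Clusters were hairpins within 10000 bases of each other on the same strand, with tested strands from at least 2 hairpins. Mature miRNAs listed under several hairpins were left out. Of 39 such clusters, 33 had calls in one direction only (14 higher, 19 lower), 1 had both and 5 had none. Of the 33, 8 held a single call and so could not show both directions. All tested strands were higher in 4 clusters and lower in 10.

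Which arm of a hairpin was kept did not detectably depend on the line. Of 110 hairpins with at least 50 reads in every library, limma called 0 at adjusted p 0.05 (0.00%), with 8 at an unadjusted p under 0.05 and a smallest adjusted p of 0.17. The lines did not overlap for 18 (16.4%). The median standard error of the log2 ratio difference was 0.33, and 6 hairpins differed by more than 2-fold, so moderate and some large arm differences could be missed. The 5p arm was the more abundant one in both lines for 61 hairpins and the 3p arm for 46, and the major arm differed for 3 (miR-28, miR-362 and miR-1307, named after their values were seen). Without HEK293E replicate 1 limma called 1 hairpin, and the ratio with a pseudocount of 5 in place of 0.5 called 2.

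MiRNAs made without DROSHA, namely mirtrons cut out by splicing and miR-320a and miR-484, whose hairpins are themselves short transcripts, took 11.3% ± 0.878 of reads in HEK293E and 4.09% ± 1.19 in HCT116 (SD, n = 3 each; exact permutation p = 0.1, the smallest possible). On the TMM scale 6 of 12 tested strands were higher and 3 lower, with a median of 0.47 beside 0.05 for all miRNAs. miR-484 had 13555, 15655 and 11211 CPM in HEK293E, against 5167, 5551 and 4909 CPM in HCT116 (1.37 ± 0.15, edgeR adjusted p = 4.3e-05). miR-877-3p, a mirtron of ABCF1, averaged 1194 ± 476 CPM in HEK293E and 365 ± 35.5 CPM in HCT116 (1.71 ± 0.27), while the mirtron miR-1224-5p averaged 21.4 ± 9.29 CPM and 72.6 ± 16.9 CPM (-1.77 ± 0.37). These mirtron strands had the largest rise and the largest fall of the list. miR-877-3p is the minor strand, since the 5p arm held 77.6% of miR-877 reads in HEK293E and 85.5% in HCT116.

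The 6 libraries rescued with DROSHA-p140 share no sample with those above but came from the same knockout lines. They repeat the line difference in other libraries and cannot tell the identity of a line from features of its knockout cells. With p140 232 of 422 miRNAs passed (55.0%), 108 higher and 124 lower in HEK293E. A total of 184 passed with both forms of DROSHA, every one in the same direction, which is 79.3% of the p140 calls and 55.6% of the full-length calls. Of the 259 miRNAs called with full-length DROSHA that could be tested with p140, 242 had the same sign. The same share over all miRNAs tested with both forms was not computed.

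Several of the largest differences recurred at like size. miR-218-5p had a log2 fold change of 7.39 ± 0.19 with p140, against 7.34 ± 0.20 with full-length DROSHA, and miR-21-5p -5.81 ± 0.17, against -6.37 ± 0.13 with full-length DROSHA. For miR-100-5p the values were -6.77 ± 0.22 with p140 and -6.84 ± 0.20 with full-length DROSHA, for let-7i-5p -5.02 ± 0.19 and -5.21 ± 0.15, and for miR-99a-5p 6.50 ± 0.32 and 7.02 ± 0.46. The interaction of line and DROSHA form was past adjusted p 0.05 for 17 of 515 miRNAs (3.30%) in edgeR, and none of these 5 was among them. Of the 24 largest differences, 2 were, with smaller differences under p140. miR-98-5p had a log2 fold change of -3.79 ± 0.29 with p140, against -5.19 ± 0.23 with full-length DROSHA (interaction adjusted p = 0.040 in edgeR), and miR-4286 2.05 ± 0.37, against 3.86 ± 0.28 with full-length DROSHA (0.049). That count moved to 85 without p140 replicate 3 of HCT116, and it was between 5 and 11 without any other p140 library or any full-length HCT116 library. The library of p140 replicate 3 of HCT116 held 7.05% of its reads in DROSHA-independent miRNAs, while p140 replicates 1 and 2 of HCT116 held 21.0% and 18.9%, and the part of this in the interaction was not tested.

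Wild-type HCT116 libraries showed where the HCT116 side of a difference was that of unmodified cells, as a description without a test. Of the 174 miRNAs higher in HEK293E than in rescued HCT116, 150 were also above all 3 wild-type libraries in 9.1% FBS. Of the 157 lower ones, 120 were also below all 3. Over all 517 miRNAs tested, 216 (41.8%) had every wild-type library below HEK293E and 187 (36.2%) had every one above.

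miR-21-5p averaged 6324 ± 259.9 CPM in HEK293E and 521650.5 ± 31065 CPM in rescued HCT116, beside 266372 ± 31005 CPM in wild-type HCT116 in 9.1% FBS and 865311 CPM in the untreated wild-type library, so rescued HCT116 lay between the wild-type cultures. miR-218-5p averaged 51649 ± 4766 CPM in HEK293E and 318 ± 62.0 CPM in rescued HCT116, beside 36.9 ± 17.6 CPM in wild-type HCT116 in 9.1% FBS and 77.3 CPM untreated. These differences were thus present against cells that had not been knocked out.

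Other differences changed size or side with the HCT116 cells used. miR-200c-3p, a guardian of the epithelial state that represses ZEB1, averaged 67.5 ± 30.1 CPM in HEK293E and 261 ± 42.1 CPM in rescued HCT116, beside 30306 ± 2675 CPM in wild-type HCT116 in 9.1% FBS and 59355 CPM in the untreated library. Its neighbour miR-141-3p averaged 34.5 ± 3.68 CPM in HEK293E and 108 ± 15.8 CPM in rescued HCT116, beside 18881 ± 5133 CPM in wild type in 9.1% FBS and 25504 CPM untreated. Rescued HCT116 held 116-fold less miR-200c-3p and 175-fold less miR-141-3p than wild type in 9.1% FBS, so the HEK293E deficit was far larger against wild type.

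A total of 5 miRNAs that were higher in HEK293E than in rescued HCT116 lay below every wild-type library in 9.1% FBS, namely miR-375, miR-9-3p, miR-92b-3p, miR-577 and miR-1296-5p. miR-375 averaged 183 ± 71.2 CPM in HEK293E and 13.8 ± 5.59 CPM in rescued HCT116, beside 283 ± 25.9 CPM in wild type in 9.1% FBS and 957 CPM untreated. miR-9-3p averaged 333 ± 72.5 CPM in HEK293E and 63.1 ± 27.7 CPM in rescued HCT116, beside 1292 ± 84.6 CPM in wild type in 9.1% FBS and 936 CPM untreated. In the other direction 10 miRNAs that were lower in HEK293E than in rescued HCT116 lay above every wild-type library. Clone, knockout and culture differ together between these HCT116 cells and cannot be told apart.

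**Figure D5:**
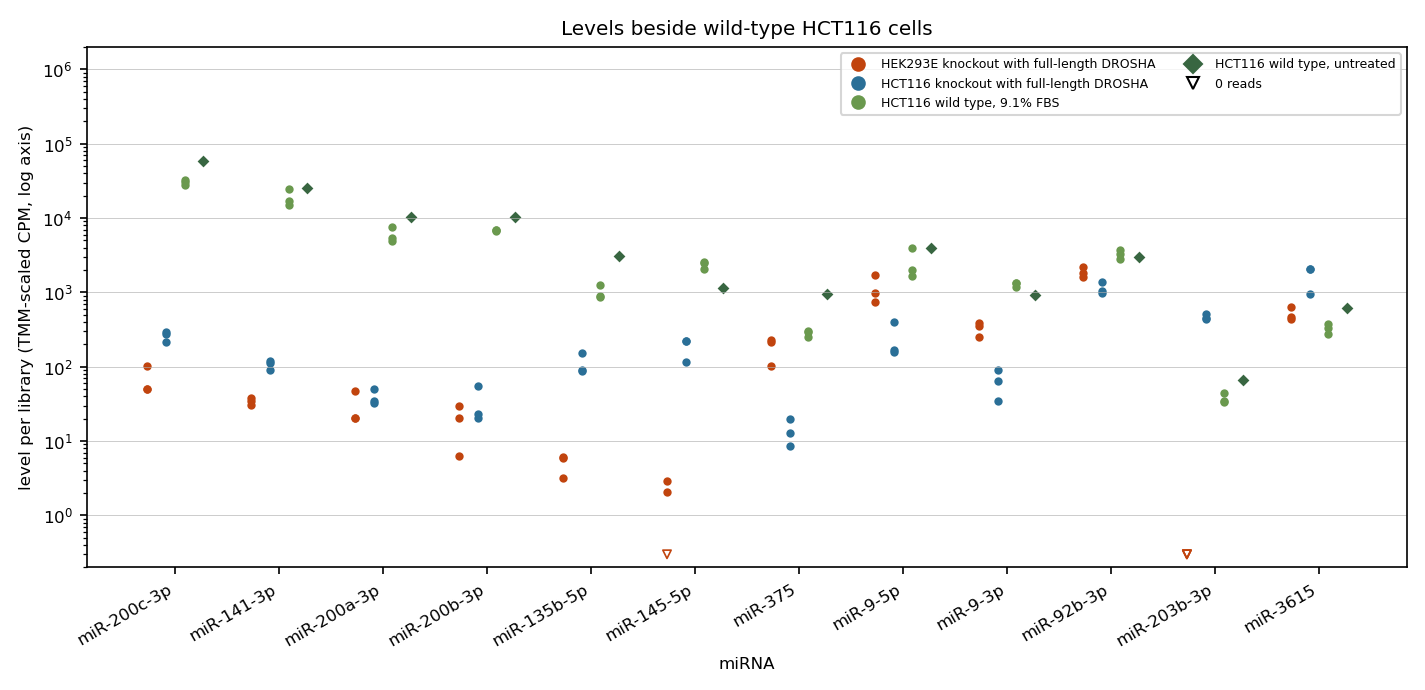
Level in each library (TMM-scaled CPM, log axis) of 12 miRNAs, with HEK293E and HCT116 knockout cells rescued with full-length DROSHA left of wild-type HCT116 in 9.1% FBS (3 libraries) and untreated (1 library). The 4 miR-200 family members lie at 291 CPM or less in all rescued libraries and at 4926 CPM or more in all wild-type ones, and miR-375 and miR-9-3p of HEK293E lie between rescued and wild-type HCT116.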

How the data were processed

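Small RNA was sequenced on a MiSeq, and per the labels' protocols total RNA was mixed with spike-in RNAs, size-selected on a gel and ligated to randomized adaptors. The submitters' processing notes name hg38 and the tools STAR, cutadapt and bedtools. Their versions, the handling of multi-mapping reads, strand and randomized bases are not given here in any source. The authors deposited unnormalized counts of reads, 2813 per library, with a line for every pair of mature miRNA and hairpin. Where a mature miRNA had several hairpins (167 did), copies mostly carried near-equal counts, over 95% of the top copy for 26 of the 29 with 500 reads or more. Only the top copy was therefore used, and the locus of such a miRNA is unresolved.

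The line difference was fitted on 517 of 2588 miRNAs in R 4.3.3 by the two-sided quasi-likelihood test of edgeR 4.0.16, after TMM scaling and a filterByExpr minimum of 10 reads, with a Benjamini-Hochberg threshold of 0.05. Arm ratios, log2 of 5p over 3p counts with 0.5 added, were tested with limma 3.58.1, and single shares with exact permutation. DESeq2 1.42.0, library totals alone, a DROSHA-independent scale, no filter, summed copies, fits without miR-21-5p, with 12 libraries, with a replicate block and without each library were the alternatives. Tested on simulated counts of 531 miRNAs of the line comparison, edgeR recovered 71.0% of log2 changes of 1 and 99.0% of log2 changes of 2 and called 1.76% of unchanged ones. That simulation used a common dispersion and log2 changes of at most 2 drawn evenly in both directions. It therefore says nothing of errors from the choice of scale. In simulated counts of 110 hairpins the arm test recovered 81.5% of log2 ratio changes of 2. There the noise between libraries was set to the same size for every hairpin and was not estimated from these libraries. Depth per library was 224265 to 873717 reads in the comparison. Named miRNAs were the 12 largest fold changes in each direction past the threshold with at least 100 CPM and no overlap, the 10 most abundant per line, list members by level, and the 6 largest seeds in each direction with at least 1000 CPM; others were named after their values were seen. Members and lists were chosen with earlier results of these data known. Coordinates are hg38, hosts GENCODE 29, and sequences RefSeq GRCh38.p14, matched for 2281 of 2588 miRNAs.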

Additional observations from a re-analysis of the deposited data

Results flagged for a closer look

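The difference between the lines depended on the form of DROSHA for some miRNAs, by the interaction term of edgeR over 12 libraries (adjusted p under 0.05 for 17 of 515). Values are the log2 fold change of HEK293E over HCT116 with p140 minus that with full-length DROSHA. HEK293E stood higher relative to HCT116 with p140 for miR-421 (2.39) and miR-374b-5p (1.90) of one FTX hairpin pair, miR-374a-5p (0.99) of the next, miR-454-3p (1.96), miR-19a-3p (1.68), miR-15b-5p (1.31), miR-425-5p (1.28) and miR-181b-5p (0.85). For miR-98-5p (1.38), let-7f-5p (0.94) and miR-30e-5p (0.91) the deficit of HEK293E was smaller with p140. The difference was negative for miR-4286 (-1.79), miR-1260b (-1.67) and miR-484 (-1.17), and for the scarce miR-1250-5p (-5.90), miR-3188 (-2.05) and miR-4722-5p (-6.35). The value of miR-4722-5p, which had 0 reads in HEK293E with p140, is a fitted one that depends on the prior count and is no bound. miR-421, an FTX miRNA, averaged 321 ± 68.5 CPM in HEK293E and 18.3 ± 15.8 CPM in HCT116 with p140, against 1016 ± 85 CPM in HEK293E and 334 ± 27.7 CPM in HCT116 with full-length DROSHA (SD, n = 3 each). The number of calls moved to 85 without p140 replicate 3 of HCT116 and to between 5 and 11 without any other p140 library or any full-length HCT116 library.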

How the results depend on the processing

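The scale set the balance of directions. With library totals alone in place of TMM, 315 miRNAs were higher and 76 lower with full-length DROSHA, 278 seeds higher and 47 lower, and 74.1% of the p140 calls were higher in place of 46.6%. On the DROSHA-independent scale 107 miRNAs were higher with full-length DROSHA. Among miRNAs of the lists, the log2 fold change changed sign with library totals alone for let-7e-3p (0.20), let-7e-5p (0.41), miR-103a-3p (0.28), miR-126-3p (0.47), miR-128-3p (0.018), miR-130b-3p (0.21), miR-130b-5p (0.49), miR-148b-3p (0.51), miR-148b-5p (0.025), miR-183-3p (0.042), miR-183-5p (0.020), miR-190a-5p (0.37), miR-194-5p (0.23), miR-221-5p (0.16), miR-26a-5p (0.13), miR-28-3p (0.19), miR-28-5p (0.32), miR-29b-2-5p (0.11), miR-301a-3p (0.55), miR-301b-5p (0.041), miR-362-3p (0.065), miR-660-5p (0.63) and miR-96-5p (0.21). On the DROSHA-independent scale it did so for miR-106b-5p (-0.053), miR-30d-5p (-0.045) and miR-93-5p (-0.025). The cause was not tested. Summing the copies of a miRNA moved the line differences of read shares, in percentage points, to -18.9 for the most abundant miRNA, -12.5 for the top 10, -6.22 for the top 50 and 5.23 for DROSHA-independent miRNAs. Leaving out miR-21-5p moved them to -2.19, 0.55, -1.38 and 5.0. A pseudocount of 5 gave 2 arm calls.

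Leaving out each library in turn gave 279 to 360 calls with full-length DROSHA (146 to 197 higher, 133 to 164 lower), 221 to 275 seeds (121 to 138 higher, 98 to 137 lower), 0 to 1 arm calls, 203 to 280 calls with p140 (44.1% to 48.6% of them higher) and 5 to 85 interaction calls. The share differences ranged from -28.1 to -27.2, -19.5 to -17.7, -8.47 to -7.89 and 6.51 to 7.63 points. The 24 largest differences stayed past the threshold in every one of these fits in which they were tested. Replicate numbers are shared between groups, but same-numbered libraries did not deviate together (r of -0.15, 0.19 and -0.09). A replicate block gave 328 calls in place of 331, 320 of them the same miRNAs, and 21 interaction calls in place of 17. HEK293E libraries were the shallower ones, which limits low miRNAs there.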
